A study of Bos taurus with 8 samples.

Results

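WNT and Norrin signalling was followed in cultured bovine granulosa cells through 10 genes: the ligands NDP, WNT2 and WNT4, the receptors FZD4, FZD1 and FZD6, the secreted inhibitor SFRP4, the mediator CTNNB1, the DNA-binding factor LEF1 and the feedback gene AXIN2. They were taken by symbol through the annotation of the array platform, which named 10 probes for 8 of the 10 genes, out of 43794 gene probes and 15216 named genes on the array. NDP had 3 probes and each of the other 7 genes had 1. No probe is listed under FZD6 or WNT4, so these were not analysed here. A deposited table of ratios holds values unrelated to the scanner tables under the same probe names, so the gene behind each value rests on the names in the scanner tables. All 10 probes passed the filter on dim signals, as did 36531 probes in all.

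Granulosa cells line the ovarian follicle, nurse the oocyte and respond to follicle-stimulating hormone (FSH) through its receptor. The cells came from bovine slaughterhouse ovaries, from dissected follicles of 2 to 6 mm, and were cultured for 48 h. Control cultures received no FSH, and treated cultures received FSH at 1 ng/ml for the last 4 h. Each of the 8 two-colour arrays held control RNA in one dye and treated RNA in the other, and arrays of the same number with the dyes exchanged form 4 pairs, called replicates 1 to 4. The protocol gives a number of 4 per biological replicate without making clear whether it counts follicles or ovaries, and nothing says that the control and treated cultures of a number came from the same ovaries.

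WNT proteins bind Frizzled receptors together with the coreceptors LRP5 or LRP6. In the canonical branch this halts the destruction of beta-catenin, the product of CTNNB1, which then enters the nucleus and activates genes with factors such as LEF1. Norrin, the product of NDP, is not a WNT protein but binds FZD4 with LRP5 and the tetraspanin TSPAN12 and feeds into the same branch; it is best known for the growth of retinal vessels in humans and mice. In mice, WNT4 is needed for ovarian development and FZD4 for the formation of corpora lutea, and in rodent granulosa cells beta-catenin acts with FSH on the aromatase gene.

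Between 71.4% and 84.2% of gene probes, depending on the array and channel, were brighter than 95% of the negative control spots, which is meant below by above the negative controls. The brightest granulosa markers were INHA and INHBA, at mean log2 intensities of 15.11 and 15.14. The others ranged from 6.92 for FOXL2 to 14.25 for CDH2, with the FSH receptor gene FSHR at 8.62. Of 11 granulosa markers, 10 lay above the negative controls in every channel, while FOXL2 did so in 7 control and 5 FSH channels of 8. Of 5 theca markers, PTCH1 at 9.21, INSL3 at 7.95 and HHIP at 7.10 were above the negative controls in every channel, the enzyme CYP17A1 at 6.95 was so in 7 FSH and 8 control channels, and LHCGR was so in 2 of each. Fibroblast and stroma genes were present, LUM among them at 13.78. One control library stood apart: NR4A1, an immediate-early gene, was at log2 ratios of 3.22, 4.37, 0.13 and 4.10 in replicates 1 to 4, and its control level was 14.89 in replicate 3, against 10.89 to 11.25 in the other 3. Values without replicate 3 are therefore given where they change a call or move a value by over 1.5 times. This was done for the genes followed here and, by their brightest probes, for the pathway genes named by lowest unadjusted p. It was not done for markers or other probes and genes. Since that replicate stands out by its response to FSH, values without it are no independent test.

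With FSH, NDP was higher, and its mean difference was the largest among these genes by each of its 3 probes. FZD1 was lower in every replicate. The single probes of WNT2, FZD4, SFRP4, CTNNB1, LEF1 and AXIN2 differed by less than 0.17 on the log2 scale in the mean. None of the 10 probes passed limma's test over the 4 replicate means at an adjusted p under 0.05, nor did any other of the tested probes, a background of 0%. At an unadjusted p under 0.05, 2 of the 10 probes were higher, both of NDP, against 6.9% of all tested probes, and 1 was lower, that of FZD1, against 5.26%.

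**Figure D1:**
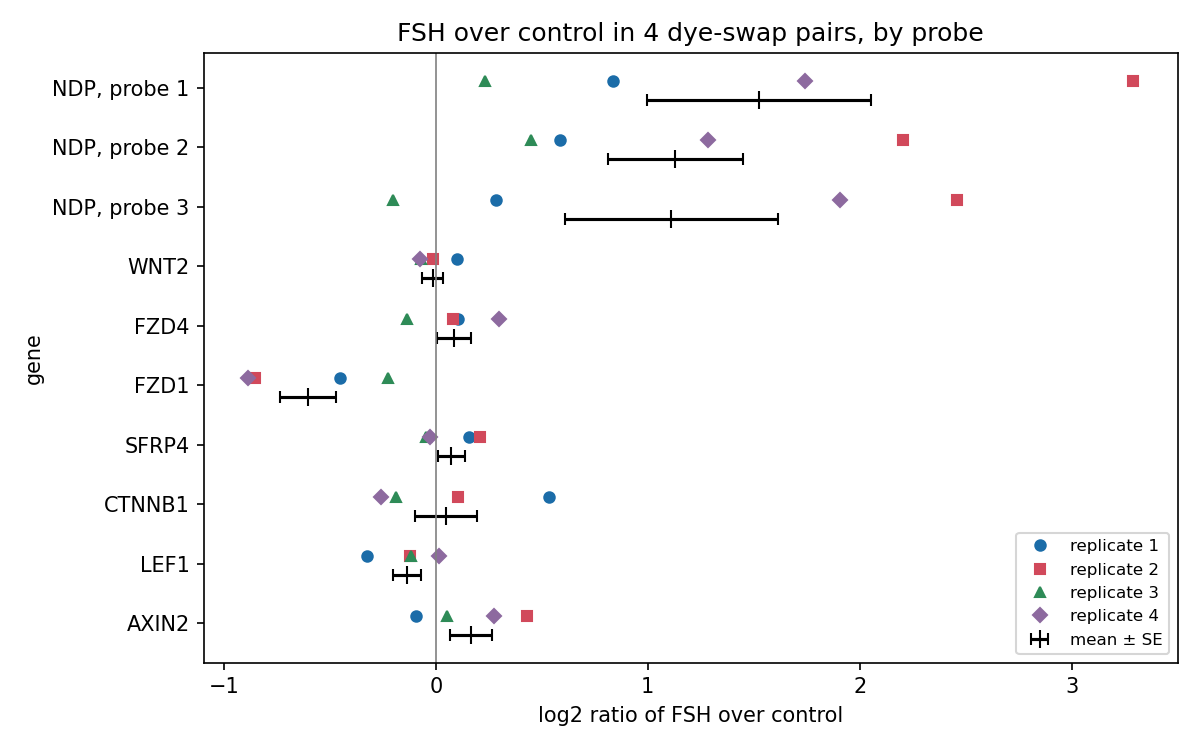
Log2 ratio of FSH over control (x axis) for each of the 10 probes (y axis), with a coloured point per replicate and the mean with its standard error in black. NDP probe 1 is the brightest and probe 3 the dimmest. The NDP probes reach from -0.20 to 3.29, FZD1 lies below 0 in all 4 replicates, and the other genes scatter around 0.

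NDP was read by 3 probes that differ in brightness, named EMBV3_08523, EMBV3_19609 and EMBV3_29913, here called the brightest, the second and the dimmest. Each exceeded the negative controls in all 16 channels. For the brightest probe the level, as log2 intensity, was 13.01, 10.76, 13.16 and 12.06 in the controls of replicates 1 to 4. With FSH it was 13.84, 14.05, 13.39 and 13.80. Every FSH level lay above every control level, as for 1.67% of all tested probes, although the control of replicate 3 at 13.16 came close to the FSH culture of the same replicate at 13.39. The controls ranged over 2.40 and the FSH cultures over 0.66, with means of 12.25 ± 1.10 and 13.77 ± 0.28 (SD, n = 4).

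The ratio of NDP thus differed widely between replicates. By the brightest probe the log2 ratio of FSH over control was 0.84, 3.29, 0.23 and 1.74 in replicates 1 to 4. Replicate 2 had the lowest control level and the highest ratio, and replicate 3 had the highest control level and the lowest ratio. The mean was 1.52 ± 0.53 (SE, n = 4 replicates), which is 2.88-fold, with a 95% interval from 0.15 to 2.90 and an adjusted p of 0.374 by limma. The ratio was above 0 in 8 of 8 arrays. Without replicate 2 the mean was 0.94, and without replicate 3 it was 1.96.

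The second NDP probe gave the same order of replicates in the ratio. Its control levels were 12.82, 10.66, 12.46 and 11.55, and its FSH levels were 13.41, 12.87, 12.91 and 12.84. These groups did not overlap either, but the highest control, that of replicate 1, lay just below the lowest FSH culture. The ratios were 0.59, 2.20, 0.45 and 1.29, with a mean of 1.13 ± 0.32 (SE, n = 4 replicates), or 2.19-fold, an adjusted p of 0.316 by limma, and 8 of 8 arrays above 0.

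The dimmest NDP probe stood at 9.92, 7.89, 10.26 and 8.69 in the controls and at 10.20, 10.35, 10.06 and 10.60 with FSH. Here the groups overlapped, because the control of replicate 3 lay above the FSH cultures of replicates 1 and 3. Replicate 3 was thus lower with FSH. Its ratios were 0.29, 2.46, -0.20 and 1.91, and the mean was 1.11 ± 0.50 (SE, n = 4 replicates; adjusted p = 0.474 by limma). Over the 8 levels the 3 probes correlated pairwise at r = 0.93 to 0.97; the points are 4 control and 4 FSH means that share arrays in pairs, so this describes the probes and is no test.

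The unscaled intensities show the same contrast before any normalisation. On the arrays with FSH in Cy5, the brightest NDP probe gave 1751 in the control channel and 14387 in the FSH channel of replicate 2. In replicate 3 it gave 9344 and 10997. On the arrays with FSH in Cy3 the values were 1899 and 17445 in replicate 2, and 9174 and 11792 in replicate 3. The FSH channel was the brighter one in both dyes.

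**Figure D2:**
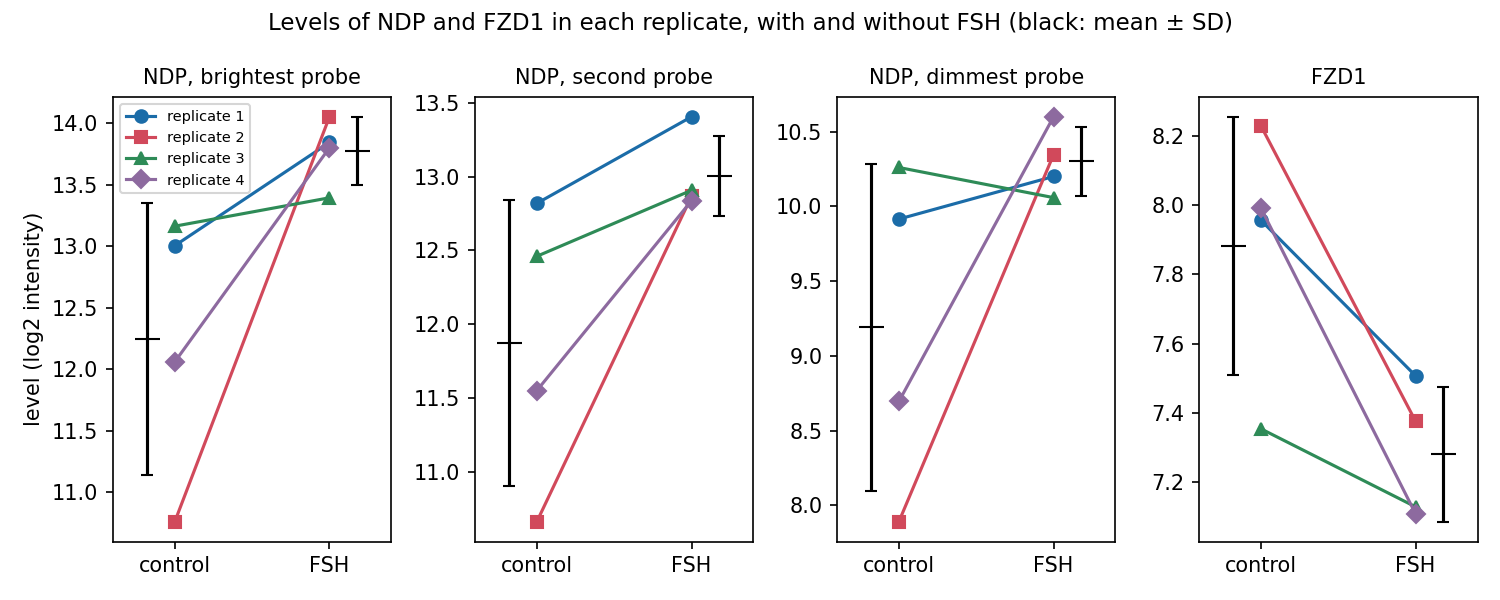
Level (log2 intensity, y axis) without and with FSH (x axis) for the 3 NDP probes and the FZD1 probe, with a line per replicate and the mean with its SD in black beside the points. The NDP controls spread over more than 2 log2 units in each probe and the FSH cultures over at most 0.66. Each panel has its own y range.

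Markers of other cells varied between the control libraries as well. The 7 fibroblast and stroma markers, summed on the linear scale, were lowest in the control of replicate 2, at 10573, where NDP was also lowest, and highest in that of replicate 1, at 34038. They were at 23894 and 20457 in replicates 3 and 4, and at 18729 to 45402 with FSH. These sums are led by the brightest marker, LUM, at a mean log2 intensity of 13.78. Endothelial markers, of which 8 of 9 were tested, summed to 1131 to 1485 in the controls and to 1211 to 1370 with FSH. Only 5 of the 8 lay above the negative controls in every channel, so these sums include dim signals near background. Of the endothelial markers, KDR was at 0.81 ± 0.27, CLDN5 at -0.29 ± 0.08, VWF at 0.07 ± 0.12 and CDH5 at -0.06 ± 0.04 (SE, n = 4 replicates). KDR exceeded the negative controls in 8 FSH channels and 3 control channels, so it was tested only through its FSH channels. Its controls stood at 6.77, 6.52, 7.78 and 6.43 in replicates 1 to 4. The 6 smooth muscle and pericyte markers summed to 13137, 7684, 7284 and 7682 in the controls of replicates 1 to 4. With FSH they summed to 9537, 5838, 7093 and 6428, lower in each replicate. Such a sum is led by the brightest marker, ACTA2, at a mean log2 intensity of 12.58. By ratio, 3 of the 6 were above 0 and 3 below. The mean log2 level of the set was higher with FSH in replicates 3 and 4, at 8.44 against 8.36 and 8.73 against 8.71. It was lower in replicates 1 and 2. ACTA2 was at -0.38 ± 0.08 (SE, n = 4 replicates; adjusted p = 0.251 by limma over replicate means). In a fit with the replicate number as a block its adjusted p was 0.0301. Its mean was -0.63 with FSH in Cy5 and -0.12 with FSH in Cy3. Of the 7 immune markers, 3 lay above the negative controls in every channel. The 7 summed to 956 to 2071 in the controls. Their sum was 3127 in the FSH culture of replicate 4 against 1148 to 1703 in the other FSH cultures. PTPRC led this sum, at a level of 10.87 in that culture against 7.26 to 7.58 in the other FSH cultures. In the control of replicate 4 PTPRC was at 9.52. The part of any of these cells in the NDP result was not tested. In bulk RNA, more cells of a type and more RNA per cell cannot be told apart.

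In a fit of all 8 arrays with a dye term and the replicate number as a random block, the second NDP probe rose (adjusted p = 0.0377), while the brightest (adjusted p = 0.0672) and the dimmest (adjusted p = 0.148) did not pass. In this fit 2 of the 10 probes passed, this one and that of FZD1, where 3.41% of all tested probes did, 2% upward and 1.41% downward. It treats the arrays of a pair as partly independent, with 1 correlation for all probes of 0.72, and its SE was 0.38 against 0.53 over replicate means for the brightest NDP probe. For FZD1 the SE was 0.13 in both fits, and for FZD4, LEF1, SFRP4 and WNT2 it was larger in the blocked one. Without replicate 3, all 3 probes passed in it, where 3.8% of all tested probes passed upward, 3.34% downward and 7.14% in all, with the brightest at 1.96 ± 0.38 (SE; adjusted p = 0.0255).

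WNT2, the only WNT ligand among these genes with a named probe, gave a signal barely above background. Its levels were 6.95, 6.99, 6.97 and 6.96 in the controls and 7.05, 6.97, 6.90 and 6.88 with FSH. The groups overlapped, and the ratio was -0.01 ± 0.05 (SE, n = 4 replicates) with a 95% interval from -0.14 to 0.11. At this signal a change in WNT2 RNA was not detectable.

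FZD1, a Frizzled receptor for WNT ligands, was the one member that was lower with FSH in all 4 replicates. Its levels were 7.96, 8.23, 7.35 and 7.99 in the controls and 7.51, 7.38, 7.13 and 7.11 with FSH. The control of replicate 3 was the lowest control and lay among the FSH cultures, so that the groups overlapped. The ratios were -0.45, -0.85, -0.23 and -0.88 in replicates 1 to 4. The mean was -0.60 ± 0.13 (SE, n = 4 replicates), or 1.52-fold lower, with a 95% interval from -0.95 to -0.26 and an adjusted p of 0.269 by limma. Among all tested probes, 9.64% were below 0 in 4 of 4 replicates. The probe is dim, and in Cy3 with FSH in replicate 4 its intensity was 199.8 against 186.6 for the 95th percentile of the negative controls. With other background settings its ratio was -0.49 and -0.74. In the blocked fit FZD1 fell (adjusted p = 0.0444), and without replicate 3 it was at -0.73 ± 0.13 in that fit (SE; adjusted p = 0.0196).

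FZD1 was lower in both dye orientations, but by unequal amounts, with a mean of -0.35 over the 4 arrays with FSH in Cy5 and of -0.86 over the 4 with FSH in Cy3. Each orientation lies on its own slide, by the names of the deposited tables, so dye and slide cannot be told apart. A dye bias common to both arrays cancels in the mean of a pair, and an effect of a slide beyond that was not tested. The brightest NDP probe was at 1.60 and 1.45 in these orientations.

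FZD4, the receptor of Norrin, did not follow NDP. Its levels were 7.04, 7.003, 7.24 and 7.28 in the controls and 7.14, 7.08, 7.11 and 7.58 with FSH. The groups overlapped, and the FSH culture of replicate 4 stood above the others. The ratios were 0.10, 0.08, -0.14 and 0.30, and the mean of 0.09 ± 0.08 (SE, n = 4 replicates) had a 95% interval from -0.12 to 0.29. With FSH in Cy5 the mean was 0.34 and with FSH in Cy3 it was -0.17, so the sign depended on the orientation. Without replicate 3 the mean was 0.16 (adjusted p = 0.42 by limma). The probe is dim, with a mean log2 intensity of 7.19.

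SFRP4, a secreted protein that binds WNT ligands, lay at the edge of detection. It was above the negative controls in 4 FSH channels and 1 control channel of 8, so it was tested only through its FSH channels. Its levels were 6.69, 6.58, 6.74 and 6.82 in the controls and 6.84, 6.78, 6.70 and 6.79 with FSH, and the groups overlapped. The ratio of 0.07 ± 0.06 (SE, n = 4 replicates; adjusted p = 0.723 by limma) says little at this signal, and it was 0.11 without replicate 3.

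CTNNB1, which encodes beta-catenin, gave a strong signal in all channels, with a mean log2 intensity of 13.83. Its levels were 13.56, 14.12, 13.60 and 13.90 in the controls and 14.09, 14.22, 13.41 and 13.64 with FSH. The ratios were 0.53, 0.11, -0.19 and -0.26, above 0 in replicates 1 and 2 and below 0 in replicates 3 and 4. The mean was 0.05 ± 0.15 (SE, n = 4 replicates), with a 95% interval from -0.33 to 0.43, which leaves room for a modest change in either direction. Without replicate 1 the mean was -0.11, and without replicate 3 it was 0.13. The array orientations gave means of 0.32 and -0.23.

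LEF1, a partner of beta-catenin on DNA, was above the negative controls in 4 control and 5 FSH channels of 8. Its control levels were 7.31, 6.88, 6.83 and 6.79, and its FSH levels were 6.99, 6.76, 6.71 and 6.80. The control of replicate 1 stood above the rest, and the groups overlapped. The ratios were -0.32, -0.12, -0.12 and 0.02, with a mean of -0.14 ± 0.07 (SE, n = 4 replicates; adjusted p = 0.502 by limma).

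AXIN2, a scaffold of the complex that destroys beta-catenin and a target of the canonical branch in many tissues, stood at 7.75, 7.65, 7.67 and 7.49 in the controls. With FSH it stood at 7.66, 8.08, 7.72 and 7.76. It was highest in the FSH culture of replicate 2, and the groups overlapped. The probe lay above the negative controls in every channel but is dim, with a mean log2 intensity of 7.72. The ratios were -0.09, 0.43, 0.05 and 0.28, with a mean of 0.17 ± 0.10 (SE, n = 4 replicates) and a 95% interval from -0.09 to 0.42 (adjusted p = 0.584 by limma).

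**Figure D3:**
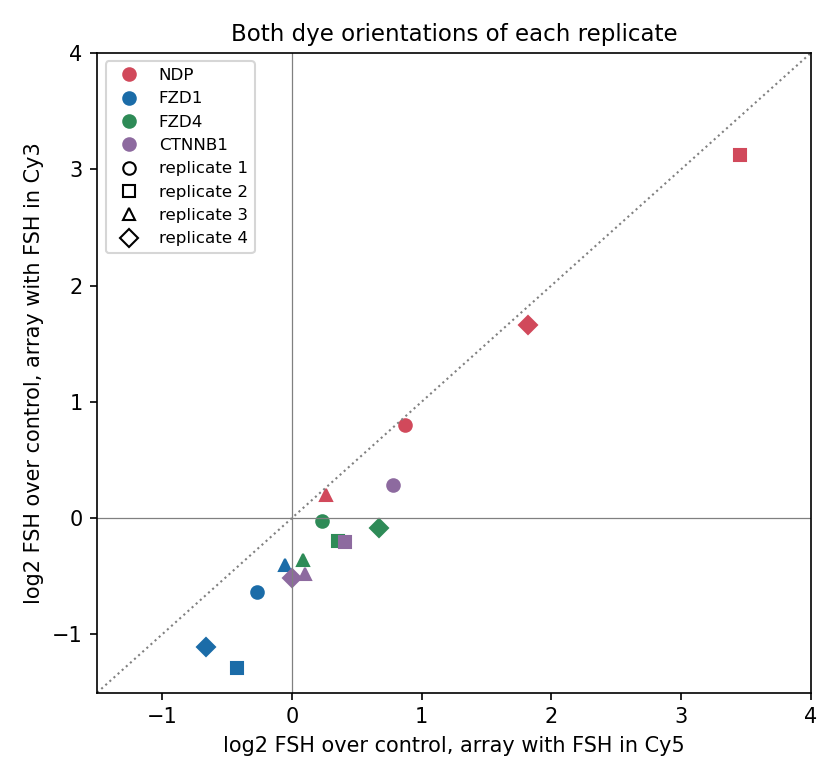
Log2 ratio of FSH over control on the array with FSH in Cy5 (x axis) against that on the array with FSH in Cy3 (y axis), for the brightest NDP probe, FZD1, FZD4 and CTNNB1, with a symbol per replicate and a dotted line of equality. The NDP points lie close to the line up to 3.45 and 3.13 in replicate 2, while FZD1, FZD4 and CTNNB1 lie below it.

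The wider pathway was described through 95 further genes by role, of which 90 had a named probe and 81 were tested. Of these, 40 were above and 41 below 0, with a median log2 ratio of -0.0018, against -0.0047 over 13592 tested named genes. The median was -0.04, 0.02, -0.01 and 0.02 in replicates 1 to 4. No listed gene passed over the replicate means. At an unadjusted p under 0.05, 8 were higher, where 7.9% of named genes were, and 4 were lower, where 8.07% were. In the blocked fit 3 rose, where 2.66% of named genes did, and 2 fell, where 2.41% did, shares of the list near the background. Of the 81 genes, 54 lay above the negative controls in every channel.

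Most of the other WNT ligands were dim and near 0, with a median log2 intensity of 7.16 over 13 tested genes. WNT2B was the exception, with a ratio of -0.66 ± 0.20 (SE, n = 4 replicates; adjusted p = 0.324 by limma). It stood at -0.61, -1.13, -0.01 and -0.90 in replicates 1 to 4, so that it hardly differed in replicate 3. In the blocked fit it did not pass (adjusted p = 0.063), and without replicate 3 it passed downward there, at -0.88 (adjusted p = 0.0066). Among the 12 genes listed as secreted inhibitors, which include the membrane proteins KREMEN1 and KREMEN2, 8 were above and 4 below 0. Of the 12, 0 had an unadjusted p under 0.05 by limma, and only 2 lay above the negative controls in every channel.

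Among receptors and coreceptors, LRP6 was at 0.67, 0.55, 0.69 and 0.99, and its mean of 0.73 ± 0.08 (SE, n = 4 replicates; adjusted p = 0.204 by limma) rose in the blocked fit (adjusted p = 0.0104). Its levels followed those of the brightest NR5A2 probe, an orphan receptor gene outside the pathway, at r = 0.997 over the 8 levels. Of the 36531 tested probes, 52 correlated with LRP6 above 0.95 in this way. The LRP6 and NR5A2 probes were also alike in brightness, both at a mean log2 intensity of 12.28. The NR5A2 ratios were 0.60, 0.50, 0.76 and 0.91. Whether the single LRP6 probe reads LRP6 RNA alone was not tested. NR5A2 is named here outside the rule for named genes. ROR2, a receptor of the branch that does not act through beta-catenin, was at -0.92, -1.92, -0.23 and -1.03, with a mean of -1.02 ± 0.28 (SE, n = 4 replicates; adjusted p = 0.305 by limma), and fell in the blocked fit (adjusted p = 0.0336).

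The partners of Norrin at the receptor are named outside the rule for named genes, after their values were seen. TSPAN12, which strengthens Norrin signals at FZD4, was at 1.92, 1.93, -0.49 and 1.53, with a mean of 1.22 ± 0.46 (SE, n = 4 replicates; adjusted p = 0.404 by limma). Its controls stood at 7.18, 6.49 and 7.12 in replicates 1, 2 and 4 and at 9.39 in replicate 3, above the FSH cultures at 8.42 to 9.10. LRP5, the coreceptor, was dim and at 0.13 ± 0.05.

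In the cytoplasmic relay, BTRC, a ubiquitin ligase that marks beta-catenin for destruction, was at -0.56, -0.92, -0.29 and -0.55. Its levels did not overlap, and its mean of -0.58 ± 0.11 (SE, n = 4 replicates; adjusted p = 0.231 by limma) fell in the blocked fit (adjusted p = 0.0164). CSNK1A1, a kinase that primes beta-catenin for the same fate, was at 0.22, 0.58, 0.23 and 0.63, with levels that did not overlap and a mean of 0.42 ± 0.09; it passed upward in the blocked fit (adjusted p = 0.0336). DAAM1, a formin of the planar polarity branch, was at -0.30 ± 0.09 by its brightest probe, but its other probes were at 0.18 and 0.11. Levels were separated upward for 1.67% of all tested probes and downward for 1.28%.

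CTBP2, a nuclear corepressor, was at 0.39 ± 0.07 by its brightest probe and passed upward in the blocked fit (adjusted p = 0.0188), and its other probes were at 0.37 and -0.07. RSPO1, a secreted enhancer of WNT signals that is needed for ovarian development in mice, was above the negative controls in 7 FSH channels and 1 control channel of 8. Its ratios were 0.12, 0.12, 0.73 and 0.59. It was tested only through its FSH channels, with controls at 6.64 to 6.71 near the negative controls, so its place among the 8 higher genes is no support. The same holds for DVL1 of the cytoplasmic relay, also named after its values were seen, at a mean log2 intensity of 6.66. DVL1 was above the negative controls in 5 FSH and 3 control channels. Its mean ratio was -0.21 with FSH in Cy5 and 0.51 with FSH in Cy3, so the sign depended on the orientation. Named after its values were seen, the membrane-bound WNT inhibitor APCDD1 was at 0.38, 2.05, 0.09 and 1.33 by its brightest probe, with a mean of 0.96 ± 0.36. A second, dimmer APCDD1 probe was at 1.19 ± 0.18 and above 0 in all 4 replicates.

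**Figure D4:**
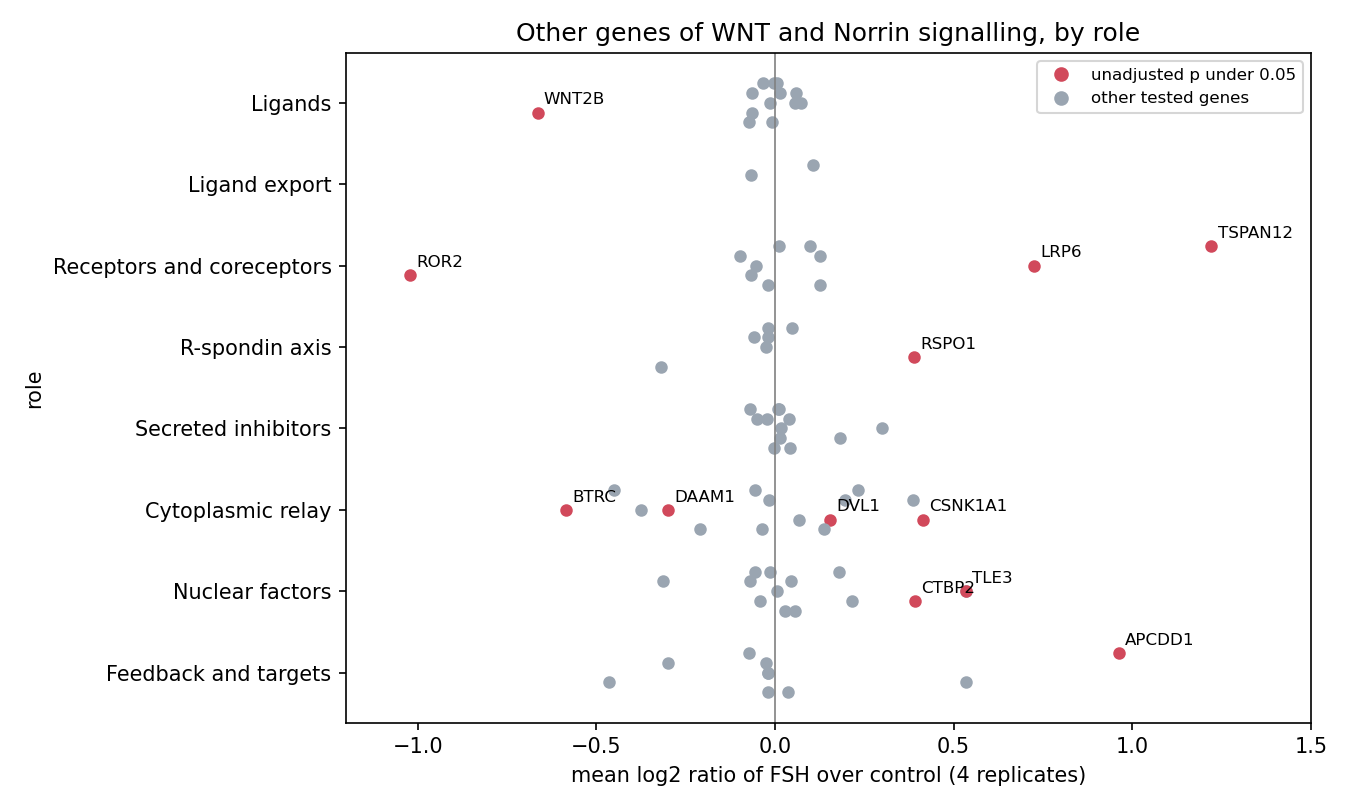
Mean log2 ratio of FSH over control over the 4 replicates (x axis) for the tested genes of the wider pathway, by role (y axis; genes with 2 roles are drawn under both). Red points, labelled by gene, have an unadjusted p under 0.05, and none of them passed after adjustment; ROR2 at -1.02 and TSPAN12 at 1.22 are the outermost.

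Genes whose levels most resembled those of NDP and FZD1 were sought among 4904 named genes with a mean log2 intensity above 9, outside the 10 members. Over the 8 levels, BMP2 followed the brightest NDP probe at r = 0.98, NPY1R at 0.97 and a probe of RGS2 at 0.97. Their ratios in replicates 1 to 4 were 0.86, 4.06, -0.05 and 2.27 for BMP2, and 1.04, 2.60, 0.18 and 1.77 for NPY1R. FZD1 was most closely followed by FAHD1, at r = 0.99, and by GTF2I, at 0.99, and VPS26A, at 0.98. These coefficients come from 8 points on shared arrays, chosen as the highest of 4904, and are descriptions only.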

How the data were processed

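The members and gene lists were chosen with earlier results of these data known. Per the file headers, the deposited values are raw spot intensities, the mean and the median local background for Cy3 and Cy5, not normalised by the authors. RNA had been amplified in 2 rounds, per the labels' protocols. The authors' deposited table of log2 ratios, of unstated scale, centring and direction (column medians -0.0203 to 0.0067), gave no result: under the same probe names it correlated with the scanner log2 ratios at r = -0.0109 to 0.013 per array, and which of the names are right was not settled beyond the check of probe pairs below. Intensities were corrected with normexp (offset 50, fitted on all 45220 spots) and ratios normalised by loess within arrays, with the 1426 control spots at weight 0 (limma 3.58.1, R 4.3.3). All ratios were expressed as FSH over control, and the 2 arrays of a replicate number were averaged. Levels were taken per channel after Aquantile scaling. Testing required a raw intensity over the 95th percentile of 153 negative controls, in either channel, on 4 or more of the 8 arrays. The mean over 4 replicates was tested against 0 with limma (lmFit, eBayes, two-sided, Benjamini-Hochberg over 36531 probes, threshold 0.05), a fit that was also tested on simulated data. Since separate animals are not stated for every culture, p-values reflect only how these samples vary, which may be technical, and the number of arrays limits the precision.

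A gene was read by its brightest tested probe. Symbols came from the platform annotation, which names 21790 probes and leaves 22004 unnamed here, and were updated through RefSeq for cattle. Bright probes of 1 symbol correlated at a median r of 0.69 over the 8 levels (643 pairs), against 0.09 for probes of neighbouring symbols. Pairing rests on the replicate numbers of a stated dye-swap design: across probes, the FSH over control ratios of arrays sharing a number had r = 0.35 to 0.61, with unlike number and dye orientation r was -0.40 to 0.28, and with unlike number but the same orientation 0.14 to 0.71, which reaches above the arrays sharing a number. Besides all 10 members, the text names the up to 8 pathway genes of lowest unadjusted p, and for the 2 members of largest mean ratio the 3 genes of most similar levels. Alternatives covered the replicate block, normalisation, background, filter, variance trend, dye orientation and each replicate left out. Figures used matplotlib 3.10.9 and pandas 2.3.3 in Python 3.11.15.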

Additional observations from a re-analysis of the deposited data

Results flagged for a closer look

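Of 30 sets of 4 values, the control levels, FSH levels and ratios of the 10 probes, 3 had 1 replicate far from the other 3 by Dixon's criterion, which chance meets in about 1 of 20 sets. The second NDP probe stood at 13.41 in the FSH culture of replicate 1, against 12.84 to 12.91 in the others. FZD4 stood at 7.58 in the FSH culture of replicate 4, against 7.08 to 7.14. LEF1 stood at 7.31 in the control of replicate 1, against 6.79 to 6.88.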

How the results depend on the processing

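The count of probes past the threshold was 0 over replicate means (4441 at an unadjusted p under 0.05 by limma) and also 0 without each replicate in turn and under the other normalisation, background, filter and variance settings. It was 1244 with the replicate block and dye term, 2610 in that fit without replicate 3, 1975 with FSH in Cy5 only and 409 with FSH in Cy3 only. NDP by its brightest probe stayed above 0 in 15 alternatives (0.94 to 1.96) and passed in 1, the replicate block without replicate 3, at 1.96. FZD1 stayed below 0 in 15 (-0.86 to -0.35) and passed in 2, the replicate block, at -0.60, and that fit without replicate 3, at -0.73. AXIN2 and LEF1 kept their sign in every alternative that gave a value. With FSH in Cy3 only, CTNNB1 turned to -0.23, FZD4 to -0.17 and SFRP4 to -0.013, and with FSH in Cy5 only WNT2 turned to 0.073; the cause was not tested. Leaving out 1 replicate gave -0.11 to 0.15 for CTNNB1 and -0.052 to 0.0056 for WNT2, which was at 0.0036 in the replicate block without replicate 3. LEF1 and SFRP4 gave no value under the strictest filter. Pathway genes above 0 numbered 36 to 45 of 81 over the alternatives, and 33 of 71 under the strictest filter. The replicate block changed no other member's call. Signal over background limits WNT2, SFRP4, LEF1, FZD4 and FZD1, whose intensities lay near those of the negative controls. AXIN2 was little brighter than FZD1, at mean log2 intensities of 7.72 and 7.59.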
